A study of Mus musculus with 30 samples.

Results

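The centrosomal CEP family and its partners are genes for proteins of the centriole and of the material around it. The members were chosen by name: every gene whose symbol begins with Cep and a number, and 11 partners (Cspp1, Ssx2ip, Pcm1, Pcnt, Cntrl, Cntln, Ninl, Nin, Akap9, Cdk5rap2 and Lekr1). The family was chosen from the 24 h sperm comparison because Cep70, Cep192, Cspp1 and Ssx2ip had small p-values there, so every 24 h value of a member is a description and supports nothing. At 24 h, 47 of 15371 mRNAs and lincRNAs were members (36 CEP-named genes and 11 partners). At 46 days, 22 of 2458 were members (13 CEP-named genes and 9 partners). Of the 48 genes in either table, 21 were in both, 26 only at 24 h and 1, Cep112it, only at 46 days.

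The study asked whether activating the nuclear receptors PPARα and PPARγ in males changes the RNA of their sperm. C57Bl/6J males, 3 months old at the first injection, received tesaglitazar, a dual agonist of both receptors, or vehicle (DMSO in saline). The dose was 10 µg per kg into the peritoneum, 2 injections per week for 4 weeks. Sperm from the cauda epididymis were collected by swim-up with lysis of somatic cells, either 24 h or 46 days after the last injection. The 24 h groups were 4 Tesa-inj and 4 Vehicle-inj libraries of polyA-selected RNA. The 46-day groups were 7 Tesa-inj and 7 Vehicle-inj libraries of total RNA depleted of ribosomal RNA. Time and library type therefore cannot be told apart. The labels number the libraries, and the p-values measure the spread between libraries.

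A centrosome is a pair of centrioles inside a protein matrix, the pericentriolar material, which nucleates microtubules through γ-tubulin rings. CEP proteins build the centriole, carry its appendages, recruit the matrix and anchor the cilium or the sperm tail. In spermatids a centriole gives rise to the axoneme of the flagellum, and in mice the centrioles then degenerate as sperm mature.

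The 24 h libraries held 15337517 to 27709918 counts (median 19565577), of which 8598 to 20453 fell on members. The 46-day libraries held 4538101 to 13513801 counts, but their 5 most abundant features took 26.0% to 98.2% of them. The members there had 318 counts in Tesa-inj library 2, 969 in Tesa-inj library 12 and 37446 in Vehicle-inj library 14. Single-library values of members at 46 days are therefore coarse in libraries 2 and 12. Levels are CPM, counts scaled to a common library size (edgeR's cpm), after TMM scaling. They are not divided by transcript length, so levels of members were compared with each other only to choose some of the genes named. The most abundant gene of a list means the one with the highest mean CPM over all libraries of a table.

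The 12 sperm markers were all in both tables. Their summed level at 24 h was 8531 ± 2807 CPM (SD, n = 4) in Tesa-inj and 8610 ± 3557 CPM (SD, n = 4) in Vehicle-inj, with Odf1 the most abundant at 978 to 3378 CPM. At 46 days the sums were 653 ± 153 and 640 ± 149 CPM (SD, n = 7), with Prm2 the most abundant at 69.7 to 244 CPM. In bulk sperm, fewer cells holding an RNA and less of it per cell cannot be told apart.

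All 48 members matched a gene of the RefSeq annotation of GRCm38.p6 by symbol. Cep76 and Cep192 lie 158698 bases apart on chromosome 18, Cep83 and Cep83os 10 bases apart on chromosome 10, and Cep112it overlaps Cep112 on chromosome 11. Cep70 lies at chr9:99183584-99325879, Cspp1 at chr1:10038116-10136771, Ssx2ip at chr3:146404642-146440144 and Lekr1 at chr3:65659539-65836527.

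The edgeR quasi-likelihood test found 0 of 13032 genes past an adjusted p of 0.05 at 24 h (0%), and the exact test of edgeR, DESeq2 and limma voom also found 0. At an unadjusted p under 0.05 it called 313 genes (2.40%), against 306 by the exact test, 419 by DESeq2 and 919 by limma voom. Of the 47 members, 46 passed the count filter at 24 h and Cep57l1 did not. The members below that p were Cep70, Cep192, Cspp1, Ssx2ip, Lekr1 and Cep295, 6 of 46, all lower in Tesa-inj, beside 185 lower genes in the whole table (1.42%). With library totals in place of TMM, Ssx2ip alone of these 6 was below that p. The log2 fold changes of the others were then -0.65 for Cep192, -0.88 for Cep70, -0.62 for Cspp1, -1.095 for Lekr1 and -0.68 for Cep295. That scaling moved the median of all genes by 0.22. The share of all tested genes that were lower was 50.9% with TMM and 33.4% with library totals. Nothing is read from these counts, because the same contrast chose the family.

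Among the genes of the pericentriolar material, Cep192 encodes the scaffold that brings the kinases PLK4 and Aurora A to the centrosome. Its level at 24 h was 41.8, 26.2, 35.6 and 26.7 CPM in Tesa-inj libraries 1, 3, 5 and 7, and 76.6, 53.8, 48.0 and 56.2 CPM in Vehicle-inj libraries 2, 4, 6 and 8. The groups did not overlap, and Vehicle-inj library 2 was the highest. The means were 32.6 ± 7.51 and 58.7 ± 12.5 CPM (SD, n = 4), a log2 fold change of -0.85 (SE 0.24). At 46 days Cep192 ran from 66.8 through a median of 78.0 to 87.6 CPM in Tesa-inj and from 72.9 through 78.9 to 86.7 CPM in Vehicle-inj. The 46-day groups covered nearly the same range, with a log2 fold change of -0.00 (SE 0.10).

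Cep70 encodes a centrosomal protein that binds γ-tubulin and takes part in spindle and cilium assembly. Its level at 24 h was 7.65, 9.86, 7.15 and 13.3 CPM in Tesa-inj libraries 1, 3, 5 and 7, and 27.6, 16.2, 19.3 and 23.3 CPM in Vehicle-inj libraries 2, 4, 6 and 8. Every Tesa-inj library was below every Vehicle-inj library with TMM, and the groups overlapped when counts were divided by library totals. The means were 9.49 ± 2.81 and 21.6 ± 4.95 CPM (SD, n = 4), a log2 fold change of -1.18 (SE 0.29). At 46 days Cep70 ran from 19.8 through a median of 30.4 to 38.4 CPM in Tesa-inj and from 28.0 through 33.0 to 36.3 CPM in Vehicle-inj. Tesa-inj held both the lowest and the highest library, and the log2 fold change was -0.11 (SE 0.13).

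Pcnt encodes pericentrin, the large scaffold of the matrix. At 24 h its level was 144, 107, 114 and 90.0 CPM in Tesa-inj libraries 1, 3, 5 and 7, and 224, 133, 131 and 128 CPM in Vehicle-inj libraries 2, 4, 6 and 8. Tesa-inj library 1 lay above 3 of the Vehicle-inj libraries, Vehicle-inj library 2 stood far above all others, and the log2 fold change was -0.44 (SE 0.26). That fold change ran from -0.56 to -0.19 when each library was left out. At 46 days Pcnt ran from 109 through 198 to 232 CPM in Tesa-inj and from 168 through 199 to 226 CPM in Vehicle-inj, with a log2 fold change of -0.08 (SE 0.15).

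Akap9, which anchors protein kinase A and γ-tubulin complexes, was at 31.5, 62.2, 32.5 and 31.0 CPM in Tesa-inj libraries 1, 3, 5 and 7 and at 32.4, 71.7, 32.1 and 42.0 CPM in Vehicle-inj libraries 2, 4, 6 and 8. A single library of each group, 3 and 4, was high, and the groups overlapped (log2 fold change -0.18, SE 0.34). The 24 h value was -0.49 without Tesa-inj library 3 and turned to 0.17 without Vehicle-inj library 4, and to 0.03 with library totals. At 46 days it ran from 1.164 through 6.38 to 30.4 CPM in Tesa-inj and from 3.24 through 7.58 to 11.4 CPM in Vehicle-inj (log2 fold change 0.28, SE 0.46). The top value was library 12, and without it the log2 fold change was -0.35. Cdk5rap2, an activator of γ-tubulin rings, had log2 fold changes of -0.06 (SE 0.32) at 24 h and 0.03 (SE 0.26) at 46 days. Its 24 h value was -0.40 without Tesa-inj library 3 and turned to 0.15 with library totals. Cep57, which links pericentrin to microtubules, had a log2 fold change of -0.43 (SE 0.44) at 24 h. At 46 days Cep57 ran from 0 through 1.34 to 3.49 CPM in Tesa-inj and from 0.659 through 2.22 to 3.50 CPM in Vehicle-inj, with a log2 fold change of -0.77 (SE 0.46). Its groups overlapped, and it had the smallest unadjusted p of the members at 46 days. Its paralogue Cep57l1 was listed at 0 in 3 of 8 libraries at 24 h and was at most 3.51 CPM.

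Among the genes of centriole assembly, Cep295 encodes a protein that newborn centrioles need to become centrosomes. Its level at 24 h was 17.6, 13.1, 8.03 and 8.05 CPM in Tesa-inj libraries 1, 3, 5 and 7, and 25.2, 21.4, 17.4 and 19.0 CPM in Vehicle-inj libraries 2, 4, 6 and 8. Tesa-inj library 1 lay just above the lowest Vehicle-inj library with TMM, and the groups did not overlap with library totals. Cep295, with a log2 fold change of -0.83 (SE 0.31), was the member just inside an unadjusted p of 0.05, and Cntln was just outside. Cep295 was not below that p without Vehicle-inj library 2, Tesa-inj library 5 or Tesa-inj library 7. Cntln was below it without Tesa-inj library 5. At 46 days Cep295 ran from 2.76 through 22.1 to 29.7 CPM in Tesa-inj and from 3.43 through 18.7 to 33.0 CPM in Vehicle-inj. Tesa-inj libraries 2 and 4 and Vehicle-inj library 9 were low, the rest were high, and the log2 fold change was -0.04 (SE 0.45).

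Cep135, which stabilises the cartwheel at the base of the centriole, had a log2 fold change of 0.04 (SE 0.39) at 24 h. At 46 days it ran from 0 through 5.14 to 9.90 CPM in Tesa-inj and from 6.49 through 8.23 to 11.6 CPM in Vehicle-inj (log2 fold change -0.57, SE 0.39). Of the 7 Tesa-inj libraries, 4 were below all Vehicle-inj libraries, and the others overlapped with them. Cep63, a partner of Cep152 in centriole duplication, had a log2 fold change of -0.24 (SE 0.20) at 24 h. It was in the 46-day table at 0 to 3.95 CPM but did not pass the filter there. Cep76, which restrains centriole reduplication, and Cep78, found at the centriole wall, had log2 fold changes of -0.82 (SE 0.70) and 0.41 (SE 0.55) at 24 h. Over the 10 assembly genes tested at 24 h, Cep152, Cep120, Cep44, Cep97 and Cep85 included, the median log2 fold change was -0.00 with 5 lower, and with library totals 0.19 with 3 lower.

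Of the appendages of the centriole, the distal ones dock it to the membrane and the subdistal ones anchor microtubules. Cep128, a subdistal protein, was at 27.0, 18.1, 24.8 and 10.1 CPM in Tesa-inj libraries 1, 3, 5 and 7 and at 27.3, 26.1, 26.5 and 26.2 CPM in Vehicle-inj libraries 2, 4, 6 and 8. The Vehicle-inj libraries were nearly equal, with a coefficient of variation of 2.05%, while Tesa-inj library 7 was low and library 1 lay within the vehicle range (log2 fold change -0.41, SE 0.30). At 46 days Cep128 had a log2 fold change of 0.05 (SE 0.19).

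Cep170b, a paralogue of the microtubule-binding appendage protein Cep170, was at 25.1, 26.5, 15.1 and 14.3 CPM in Tesa-inj libraries 1, 3, 5 and 7 and at 33.3, 16.7, 28.8 and 24.8 CPM in Vehicle-inj libraries 2, 4, 6 and 8. The groups overlapped, with a log2 fold change of -0.36 (SE 0.30). At 46 days it ran from 0 through 21.2 to 25.4 CPM in Tesa-inj and from 21.7 through 23.2 to 28.2 CPM in Vehicle-inj (log2 fold change -0.40, SE 0.42), and 4 of 7 Tesa-inj libraries were below all Vehicle-inj libraries. The 0 was in Tesa-inj library 12, and the 46-day log2 fold change ran from -0.52 to -0.21 when each library was left out. Cep350, a microtubule anchor of the subdistal region, ran at 46 days from 2.33 through 3.68 to 23.3 CPM in Tesa-inj and from 2.54 through 3.52 to 5.28 CPM in Vehicle-inj. Its log2 fold change of 0.69 (SE 0.46) rested on Tesa-inj library 12, without which it was -0.17. At 24 h its log2 fold change was -0.25 (SE 0.36).

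Nin, ninein, which anchors microtubules at subdistal appendages, had log2 fold changes of -0.70 (SE 0.41) at 24 h and -0.01 (SE 0.28) at 46 days. Ninl, a relative of ninein, had the highest log2 fold change of the members at 24 h, 1.11 (SE 0.99), from levels of 1.08 to 4.87 CPM in Tesa-inj and 0 to 2.09 CPM in Vehicle-inj. Its groups overlapped, and it was not in the 46-day table. The distal appendage genes Cep164, Cep83 and Cep89, with Cep170 and Cntrl, were also in the 24 h table only. The 10 appendage genes had a median of -0.24 at 24 h with 7 lower, and with library totals -0.00 with 5 lower.

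In the centrosome linker, Cntln encodes centlein, part of the fibres that hold the centrioles together. At 24 h its level was 3.58, 6.36, 8.58 and 3.44 CPM in Tesa-inj libraries 1, 3, 5 and 7, and 12.8, 7.28, 6.89 and 10.3 CPM in Vehicle-inj libraries 2, 4, 6 and 8. Only Tesa-inj library 5 reached the vehicle range (log2 fold change -0.76, SE 0.40). At 46 days its log2 fold change was -0.15 (SE 0.27). Cep68, a linker protein with few counts, had a log2 fold change of -1.003 (SE 1.156) from 0 to 1.86 CPM in Tesa-inj and 0.404 to 2.45 CPM in Vehicle-inj. Its log2 fold change ran from -1.65 to -0.57 when each library was left out. Cep250, the anchor of the linker on the centriole, was at 10.7 to 12.7 CPM in 3 Tesa-inj libraries and listed at 0 in library 7, against 2.72 to 13.4 CPM in Vehicle-inj. Salmon divides reads that match several transcripts, so a value listed at 0 is not a measured absence.

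Among the centriolar satellites, the granules that carry proteins to the centrosome, Ssx2ip encodes a protein that anchors microtubules at the centrosome. At 24 h its level was 3.70, 9.73, 0 and 1.42 CPM in Tesa-inj libraries 1, 3, 5 and 7, and 35.7, 24.3, 31.2 and 31.1 CPM in Vehicle-inj libraries 2, 4, 6 and 8. The groups did not overlap, every Vehicle-inj library was high, and Tesa-inj library 3 was the highest of its group. The means were 3.71 ± 4.29 and 30.6 ± 4.68 CPM (SD, n = 4), and the log2 fold change was -3.04 (SE 0.97), the lowest of the members. It was -4.19 without Tesa-inj library 3 and -2.62 without Tesa-inj library 5, the ends of its range when each library was left out. The coefficient of variation in Tesa-inj was 116%. At 46 days Ssx2ip ran from 11.9 through a median of 16.6 to 23.3 CPM in Tesa-inj and from 14.6 through 16.8 to 20.1 CPM in Vehicle-inj. No 46-day library was near 0, the vehicle range lay inside the Tesa-inj range, and the log2 fold change was 0.08 (SE 0.15).

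Pcm1, the scaffold of the satellites, had a log2 fold change of -0.24 (SE 0.32) at 24 h. At 46 days it ran from 0 through 3.46 to 13.8 CPM in Tesa-inj and from 0.649 through 2.81 to 4.40 CPM in Vehicle-inj (log2 fold change 0.68, SE 0.50). The highest value was again library 12, and without it the log2 fold change was 0.13. Cep131 and Cep290, needed for the cilium, and Cep72, a partner of satellites, were in the 24 h table only. Cep72 had a log2 fold change of 0.75 (SE 1.63), was at most 2.34 CPM and was listed at 0 in 3 of 8 libraries.

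Among the genes of cilium and spindle microtubules, Cspp1 encodes a protein of spindle poles and of the ciliary axoneme. Its 24 h level was 12.7, 18.1, 12.3 and 11.1 CPM in Tesa-inj libraries 1, 3, 5 and 7, and 27.8, 27.2, 20.6 and 21.2 CPM in Vehicle-inj libraries 2, 4, 6 and 8. The groups did not overlap under either scaling. The means were 13.53 ± 3.11 and 24.2 ± 3.85 CPM (SD, n = 4), a log2 fold change of -0.84 (SE 0.24). At 46 days Cspp1 ran from 9.88 through a median of 11.3 to 12.9 CPM in Tesa-inj and from 8.17 through 11.7 to 12.9 CPM in Vehicle-inj. The ranges were nearly the same, with a log2 fold change of 0.01 (SE 0.13). Cep41, Cep162, Cep126 and Cep19 were in the 24 h table only.

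Lekr1, outside these roles, is named for its leucine, glutamate and lysine content. At 24 h its level was 1.97, 1.47, 2.02 and 2.82 CPM in Tesa-inj libraries 1, 3, 5 and 7, and 3.59, 5.34, 6.45 and 5.80 CPM in Vehicle-inj libraries 2, 4, 6 and 8. The groups did not overlap with TMM and overlapped with library totals. The means were 2.07 ± 0.559 and 5.30 ± 1.22 CPM (SD, n = 4), and the log2 fold change was -1.35 (SE 0.42). At 46 days Lekr1 ran from 2.72 through a median of 3.61 to 4.66 CPM in Tesa-inj and from 2.61 through 3.95 to 4.503 CPM in Vehicle-inj, with a log2 fold change of -0.04 (SE 0.20). Cep95 had log2 fold changes of -0.47 (SE 0.27) and -0.20 (SE 0.22), and Cep112 of -0.19 (SE 0.53) and -0.52 (SE 0.38), at 24 h and 46 days. Cep112it, a lincRNA whose gene lies inside that of Cep112, had a log2 fold change of 0.04 (SE 0.40) at 46 days. Cep83os, a lincRNA that starts 10 bases from Cep83 on the other strand, was at 2.52 to 5.24 CPM in Tesa-inj and 3.51 to 6.06 CPM in Vehicle-inj at 24 h. Cep85l and Cep295nl, close in name to Cep85 and Cep295, were in the 24 h table only.

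**Figure D1:**
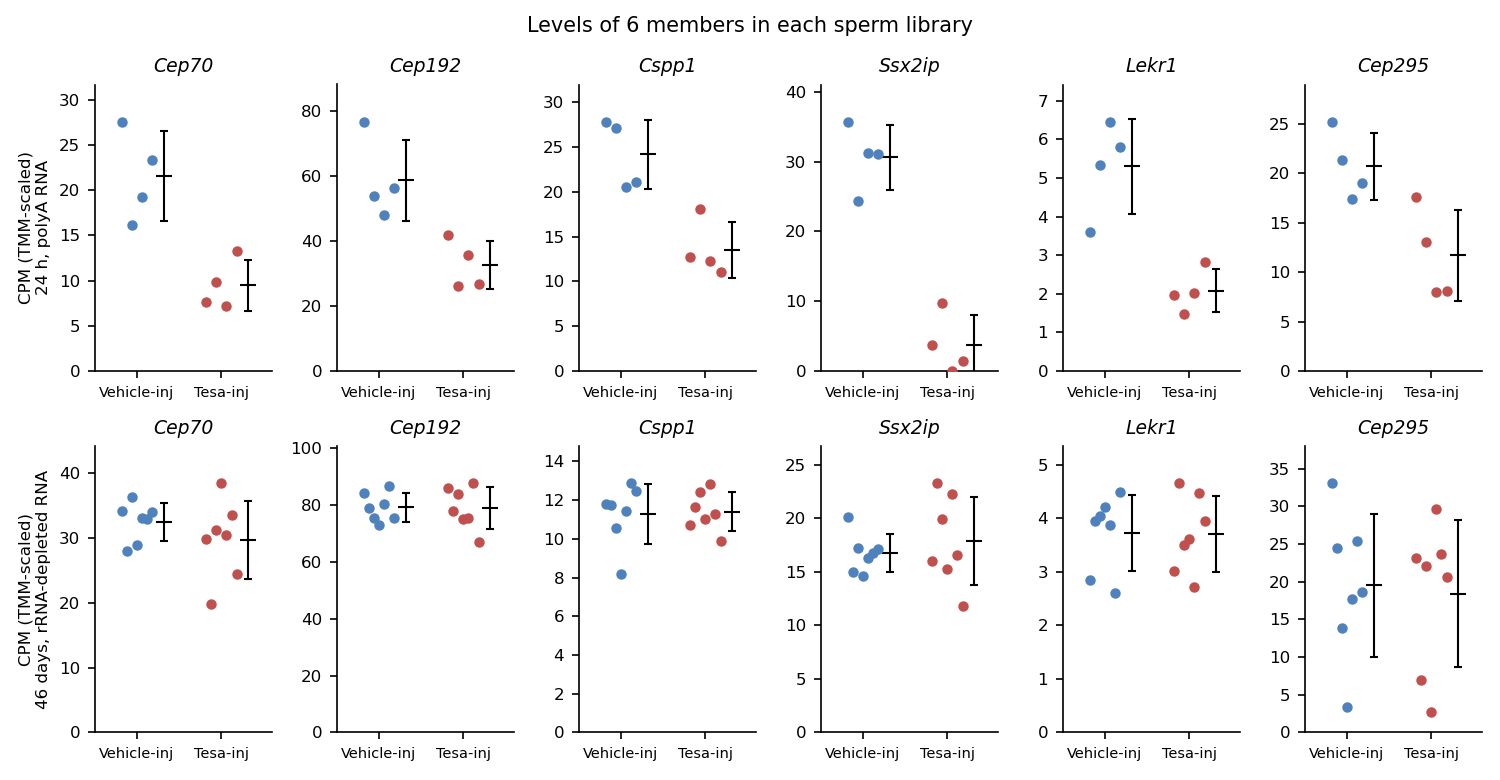
Level of 6 members in each library, in CPM on an axis from 0 (top row 24 h, bottom row 46 days; Vehicle-inj blue, Tesa-inj red; black marks mean ± SD). At 24 h all Tesa-inj points of Cep70, Cep192, Cspp1, Ssx2ip and Lekr1 lie below the Vehicle-inj points with TMM, while with library totals Cep70 and Lekr1 overlap, and at 46 days the groups of all 6 overlap.

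With TMM, 5 of 46 members had every Tesa-inj library below every Vehicle-inj library at 24 h, beside 218 of 13032 genes (1.67%). With library totals these were 4 members (Cep192, Cep295, Cspp1 and Ssx2ip), beside 72 genes (0.552%). These are the contrasts that chose the family, and nothing is read from either count. At 24 h the median log2 fold change of the members was -0.21 with TMM and 31 of 46 were lower, while with library totals it was -0.04 and 25 of 46 were lower. Of all 13032 genes, 50.9% were lower with TMM and 33.4% with library totals. The median of all tested genes was -0.01 with TMM and moved by 0.22 with library totals, so the members' median lay 0.20 below it with TMM and 0.25 below it with library totals. The partners had a median of -0.44 with 10 of 11 lower, and with library totals -0.23 with 7 of 11 lower. The CEP-named genes had a median of -0.14 with 21 of 35 lower, and with library totals -0.02 with 18 of 35 lower. By role, the 24 h median with TMM and with library totals was -0.76 and -0.56 for the 3 linker genes, -0.43 and -0.26 for the 6 genes of the matrix and γ-tubulin, and -0.16 and -0.09 for the 6 of cilium and spindle microtubules. It was -0.24 and -0.00 for the 10 appendage genes. For the 5 satellite genes it turned from -0.09 to 0.16, and for the 10 assembly genes from -0.00 to 0.19.

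The summed level of all members at 24 h was 567, 604, 500.1 and 432 CPM in Tesa-inj libraries 1, 3, 5 and 7, and 777, 695, 623 and 678 CPM in Vehicle-inj libraries 2, 4, 6 and 8. The groups did not overlap with TMM, with a mean difference of -168 CPM, and overlapped with library totals, where the difference was -86.9 CPM. At 46 days the sum ran from 369 through 484 to 517 CPM in Tesa-inj and from 420 through 478 to 502 CPM in Vehicle-inj. Those ranges overlapped, with a mean difference of -20.1 CPM, against -618.5 CPM with library totals. With TMM this 46-day difference was -31.43 to -6.814 CPM when each library was left out.

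A feature that the choice of members did not use was presence in the 46-day table. The 21 tested members with a 46-day entry had a median log2 fold change of -0.43 at 24 h, 19 were lower, and all 6 members with an unadjusted p under 0.05 were among them. Of all 2315 genes with a 46-day entry, 1626 were lower (70.2%) and the median was -0.20. At that p 124 of the 2315 were lower (5.36%). The 25 members without an entry had a median of 0.00, 12 were lower, and 0 were lower at an unadjusted p under 0.05, beside 61 of 10717 genes (0.569%). Of those 10717 genes, 46.8% were lower at any p. With library totals the median was -0.29 for members with an entry and 0.01 for all such genes. Members without an entry were then at 0.16, and all genes without an entry at 0.26. The 24 h values are the contrast that chose the family, so nothing is read from these counts.

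At 46 days, in libraries that the choice of members did not use, the edgeR quasi-likelihood test found 0 of 2262 genes past an adjusted p of 0.05 (0%). DESeq2 and limma voom also found 0, and the exact test of edgeR found 12, of which 0 were members. The study used that exact test with fewer Tesa-inj samples than here, and reported mRNAs past a false discovery rate of 0.05. At an unadjusted p under 0.05 there were 0 of 21 members, beside 130 genes (5.75%) by edgeR, 112 by DESeq2, 134 by limma voom and 148 by the exact test. Of the 130 genes 18 were lower, and of the 134 by limma voom 87 were lower. Without Tesa-inj library 12 the count fell to 75 of 2352 genes, of which 46 were lower, and 0 members, so nothing is read from the members' count. The median log2 fold change of the members was -0.01, with 12 of 21 lower, beside 0.03 for all genes, with 44.6% lower. With library totals all 21 members and 98.1% of all genes were lower. The median of the members was -1.13, but that scaling moved the median of all genes by -1.06, so the members lay 0.10 below it. Cep57, the member with the smallest unadjusted p, passed 0.05 with library totals, with limma voom and without Vehicle-inj library 9. No member had non-overlapping groups, beside 0 genes with every Tesa-inj library lower (0%) and 1 with every one higher (0.0442%).

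The spread between libraries at 46 days was wider in Tesa-inj than in Vehicle-inj for most members. The coefficient of variation in Tesa-inj and Vehicle-inj was 9.35% and 6.29% for Cep192, 20.4% and 9.06% for Cep70, and 22.2% and 9.69% for Pcnt. It was 22.9% and 10.7% for Ssx2ip, and 47.7% and 9.94% for Cep170b, while for Cspp1 it was 8.91% and 13.8%. The median over members was 40.7% and 22.8%, beside 40.6% and 23.3% over all genes. Tesa-inj libraries 2 and 12 had the fewest member counts, 318 and 969. Of the Tesa-inj values, library 12 held the lowest Pcnt (109 CPM), Cep170b (0) and Ssx2ip (11.9 CPM). Library 2 held the lowest Cep70 (19.8 CPM) and the highest Ssx2ip (23.3 CPM). The spread without libraries 2 and 12 was not computed. The standard errors of the 46-day log2 fold changes were 0.10 for Cep192, 0.13 for Cep70 and Cspp1, 0.15 for Ssx2ip and 0.20 for Lekr1.

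**Figure D2:**
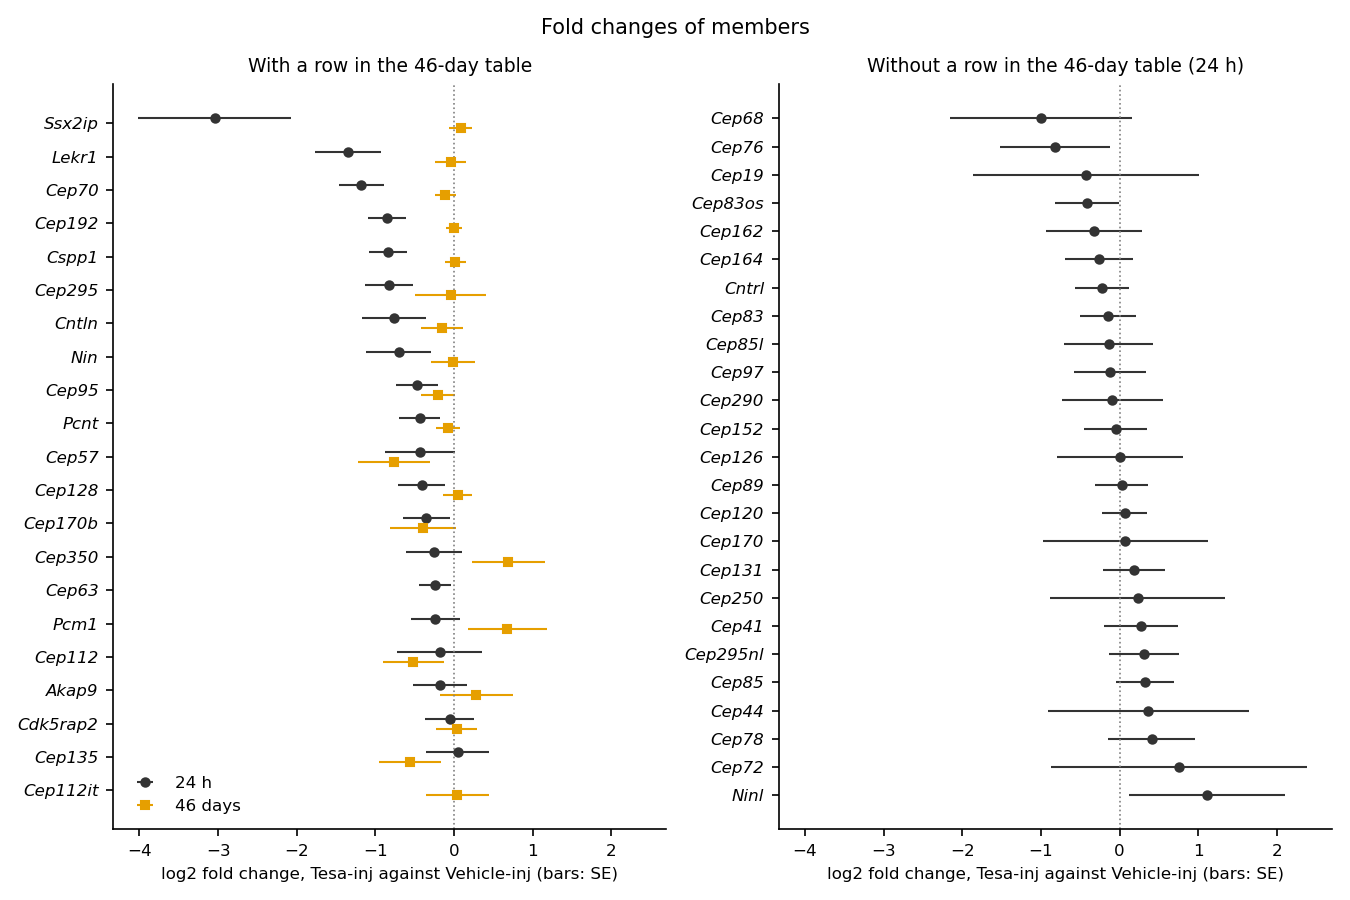
Log2 fold change of members, Tesa-inj over Vehicle-inj, with bars of 1 SE derived from the F statistic of the edgeR test. On the left are members with a 46-day entry (circles 24 h, squares 46 days), on the right members without (24 h). With TMM the left-hand 24 h values are mostly below 0, as are 70.2% of all genes with a 46-day entry, and the 46-day values lie around 0. With library totals all 21 tested 46-day values are below 0, as are 98.1% of all genes.

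The difference between the effects, 24 h minus 46 days, was computed in a model of all 22 sperm libraries with TMM over the features of both tables, so it is not the plain subtraction of the values above. It contains the 24 h contrast, so it is a description. The difference was -2.92 (SE 0.79) for Ssx2ip, -1.12 (SE 0.40) for Lekr1, -0.85 (SE 0.32) for Cep70, -0.65 (SE 0.25) for Cep192 and -0.65 (SE 0.27) for Cspp1, on the log2 scale, while with library totals it was negative for Ssx2ip (-2.01, SE 1.34) and positive for the others. With TMM within each table, an alternative added after seeing the data, it was -3.13 (SE 0.80) for Ssx2ip, -1.31 (SE 0.35) for Lekr1, -1.07 (SE 0.28) for Cep70, -0.85 (SE 0.22) for Cep192 and -0.85 (SE 0.25) for Cspp1. The median difference of all 2141 genes was -0.14 with TMM over both tables, -0.33 with TMM within each table and 0.96 with library totals, beside -0.34, -0.53 and 0.77 for the 20 members. These 5 of 20 members were lower at 24 h at an unadjusted p under 0.05, beside 84 of 2141 genes (3.92%). With library totals 0 members were, beside 14 genes at that p in either direction, of which 4 were lower. With TMM over both tables, Cspp1 was not below that p without 24 h Tesa-inj library 1, Vehicle-inj library 4 or Tesa-inj library 7. Past an adjusted p of 0.05 the edgeR test found 0 genes (0%), with 106 at an unadjusted p under 0.05 and 148 by DESeq2, and without 24 h Tesa-inj library 3 it found 4, of which 1 was a member, while without 24 h Tesa-inj library 1 it found 3, of which 0 were members.

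Other centrosome genes were taken from a list of 81. At 24 h, 70 were in the table and 68 were tested. Of these 1 was lower at an unadjusted p under 0.05 and 0 were higher. The median log2 fold change was 0.05 with 32 lower, beside 50.9% lower of all genes. With library totals it was 0.27 with 23 lower, beside 33.4% of all genes. The gene lower at that p was Wdr90, a protein of the inner centriole wall, at 10.2, 7.01, 12.5 and 6.17 CPM in Tesa-inj and 21.3, 15.9, 13.6 and 11.8 CPM in Vehicle-inj (log2 fold change -0.80, SE 0.32). Its groups overlapped by Tesa-inj library 5, and with library totals 0 of the 68 genes had an unadjusted p under 0.05. The next smallest p-values were those of Spag5, a spindle protein (-0.68 on the log2 scale), Rttn, needed for centriole elongation (-0.65), Wdr62, a spindle pole scaffold (0.59), Fopnl, a satellite protein (0.80), and Hook1, a microtubule linker of the spermatid manchette (-0.36). By role, the medians with TMM and with library totals were -0.48 and -0.20 for 4 duplication genes, -0.39 and -0.15 for 9 γ-tubulin ring genes, and -0.21 and -0.05 for 13 genes of the centriole wall and lumen. They were 0.06 and 0.33 for 11 satellite genes, 0.19 and 0.30 for 9 appendage genes, 0.20 and 0.39 for 2 linker genes, 0.33 and 0.58 for 12 spindle pole genes, and 0.23 and 0.39 for 8 genes of the head-tail coupling. At 46 days 18 of the list were in the table and 17 were tested, with 0 at an unadjusted p under 0.05. The median of the 17 was 0.04 with 8 lower, beside 44.6% lower of all genes. With library totals all 17 and 98.1% of all genes were lower. The median of the 17 was then -1.06, which is also that scaling's shift of all genes. Fgfr1op and Fopnl, which are also called Cep43 and Cep20, were counted in this list because the tables carry the older symbols.

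Markers of other cells stood beside these results at 24 h, and their part in the results was not tested. Leukocyte markers were present for 11 of 12 (Cd3e was absent), with a summed level of 264, 219, 187 and 233 CPM in Tesa-inj and 388, 217, 179 and 203 CPM in Vehicle-inj, and Cd74 was the most abundant at 46.3 to 103 CPM. Epididymal markers were present for 9 of 12 (Lcn5, Lcn8 and Rnase10 were absent), in the same order of groups at 1675, 1416, 1195 and 1825 CPM and 1106, 1262, 2031 and 2902 CPM, with Spink8 the most abundant at 524 to 889 CPM. In both lists the groups overlapped. Blood markers were present for 4 of 5 (Alas2 was absent), at 88.8, 133, 64.7 and 147 CPM and 75.7, 53.5, 153 and 269.9 CPM, led by Hba-a2. Smooth muscle markers were present for 6 of 6, at 35.2, 37.7, 96.5 and 33.8 CPM and 13.0, 41.3, 29.2 and 44.8 CPM, led by Tagln. These groups overlapped too. Of 10 spermatocyte markers 2 (Smc1b and Dmc1) were present, Sycp1, Sycp3 and Spo11 were absent, and the pair summed to 1.85, 4.11, 2.02 and 4.13 CPM and 5.01, 5.01, 1.70 and 4.61 CPM. Proliferation markers, 6 of 8 without Ccnb1 and Cdk1, were at 6.17, 11.1, 8.92 and 8.15 CPM and 4.01, 15.5, 11.0 and 12.6 CPM, led by Mki67. Spermatogonial markers, 4 of 7 without Dmrt1, Gfra1 and Sall4, were at 50.3, 33.8, 45.9 and 41.1 CPM and 82.4, 47.6, 56.9 and 38.8 CPM, led by Uchl1. In exact two-sided permutation tests over libraries the unadjusted p at 24 h ran from 0.229 for spermatocyte markers to 0.971 for sperm markers. At 46 days the leukocyte, epididymal, blood, smooth muscle and spermatocyte markers were all absent from the table. Cenpf, the 1 proliferation marker of 8 present, was at 2.56 and 1.87 CPM on average (exact permutation p 0.0437, adjusted over 11 list tests 0.481), and Uchl1, the 1 spermatogonial marker of 7, at 19.97 and 22.3 CPM (exact permutation p 0.262).

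Promoter windows from RefSeq (GRCm38.p6, 250 bases before to 50 after a start) were available for 39 of the 48 members, as 50 windows. Their median GC content was 62.3%, beside 52.7% for all 32817 windows. The letters AGGTCA, the half-site of nuclear receptors, were searched on both strands. They were present in 16.3% of all windows and in 4 of the 50 member windows, from 4 members (Cep135, Cep78, Cep95 and Nin). The direct repeat AGGTCANAGGTCA, which contains that half-site, was in 0.0396% of all windows and in 0 members. TGACGTCA, the cAMP response element, was in 1.79% of all windows and in 3 of the 50 member windows, from 2 members, Cep57 and Lekr1. CCAAT, the CCAAT box, was in 37.4% of all windows and in 23 of the 50 member windows, from 20 members, Ssx2ip and Cep295 included. A match is a description of letters only. The windows of Cep70 (chr9:99243091-99243390), Ssx2ip (chr3:146404392-146404691) and Lekr1 (chr3:65665978-65666277), all on the plus strand, are shown because these members had the 3 lowest log2 fold changes at 24 h. Capitals mark the matches to TGACGTCA in Lekr1 and to CCAAT in Ssx2ip on either strand, and the Cep70 window held none of the letters searched. The Cep70 and Lekr1 windows lie inside the annotated spans of their genes, past the annotated start.
Cep70: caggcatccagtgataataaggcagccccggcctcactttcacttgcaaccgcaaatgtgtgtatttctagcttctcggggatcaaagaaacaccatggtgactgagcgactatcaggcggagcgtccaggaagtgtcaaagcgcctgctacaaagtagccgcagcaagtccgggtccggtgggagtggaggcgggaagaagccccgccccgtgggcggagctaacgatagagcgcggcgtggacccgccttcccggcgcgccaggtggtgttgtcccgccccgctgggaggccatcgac
Ssx2ip: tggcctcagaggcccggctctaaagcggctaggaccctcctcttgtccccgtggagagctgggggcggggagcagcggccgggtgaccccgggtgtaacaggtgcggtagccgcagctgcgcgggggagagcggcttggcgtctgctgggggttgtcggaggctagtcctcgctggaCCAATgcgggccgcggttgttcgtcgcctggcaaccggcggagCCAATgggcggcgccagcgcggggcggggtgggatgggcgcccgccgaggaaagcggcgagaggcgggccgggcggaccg
Lekr1: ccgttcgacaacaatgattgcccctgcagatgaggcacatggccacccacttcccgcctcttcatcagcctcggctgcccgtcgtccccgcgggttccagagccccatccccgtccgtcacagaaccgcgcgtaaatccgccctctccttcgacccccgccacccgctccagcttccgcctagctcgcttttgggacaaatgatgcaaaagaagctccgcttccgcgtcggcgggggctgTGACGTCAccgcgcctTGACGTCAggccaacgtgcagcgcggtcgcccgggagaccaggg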

How the data were processed

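Values are the estimated counts (expected counts) per gene that the authors deposited for 22 sperm libraries, made per the submitters' notes with Trim Galore 1.16 and Salmon 0.11.2 on GRCm38. They were rounded. Each table was scaled by TMM over all its features and filtered to genes with more than 20 counts in at least 4 (24 h) or 6 (46 days) libraries, 80% of the smaller group rounded up. Tesa-inj was compared with Vehicle-inj in edgeR 4.0.16 (R 4.3.3) by the quasi-likelihood test, with Benjamini-Hochberg adjustment over all mRNAs and lincRNAs tested. Each SE was derived from that test, as the absolute log2 fold change over the square root of the F statistic. It is approximate and can be smaller than the p of the test implies. The difference between time points used 1 model with a mean for each of the 4 groups and TMM over the features of both tables. Marker sums were compared by exact two-sided permutation tests over libraries. No p was computed for the summed member level.

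Members and lists were chosen with earlier results of these data known, and members were grouped by role after their values were seen. The genes named are the 4 that the choice of members cites, 21 of the 22 members in the 46-day table, the 6 members with the highest vehicle CPM at 24 h, the 3 lowest and 3 highest log2 fold changes, the members just inside and outside an unadjusted p of 0.05, and 6 other centrosome genes with the smallest unadjusted p at 24 h. Other genes named were chosen after their values were seen.

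Other runs replaced the test (DESeq2 1.42.0, limma 3.58.1 with voom and sample quality weights, or edgeR's exact test), or changed scalings and filters, took subsets of the 46-day libraries, or left out each library. The procedure was tested on simulated data. Member counts per library ran from 318 to 37446. Serum small RNA was not used.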

Additional observations from a re-analysis of the deposited data

Results flagged for a closer look

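The values below lay far from the rest of their group of libraries, by the gap to the nearest library over the range of the group. Chance alone picks out about 1 in 20 groups, and 134 groups were tested.

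At 24 h, Tesa-inj library 3 held the highest value of its group for Akap9 (62.2 CPM, the next 32.5), Cdk5rap2 (18.7 CPM, the next 9.56) and Cep112 (5.84 CPM, the next 3.02). Tesa-inj library 5 held the highest Wdr62 (12.6 CPM, the next 8.76) and the highest sum of smooth muscle markers (96.5 CPM, the next 37.7). Vehicle-inj library 4 held the highest Cep350 (35.3 CPM, the next 21.1) and the lowest Cep63 (19.1 CPM, the next 24.8). Vehicle-inj library 2 held the highest Pcnt (224 CPM, the next 133), and Vehicle-inj library 6 the lowest sum of spermatocyte markers (1.70 CPM, the next 4.61).

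At 46 days, Tesa-inj library 12 held the highest Akap9 (30.4 CPM, the next 9.40), Cep350 (23.3 CPM, the next 3.77) and Pcm1 (13.8 CPM, the next 4.36), and Cep170b was listed there at 0 (the next 15.1 CPM). Vehicle-inj library 6 held the highest Cep95 (16.6 CPM, the next 11.9).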

How the results depend on the processing

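At 24 h, members with an unadjusted p under 0.05 numbered 6 in edgeR, 8 by limma voom with quality weights (Cntln and Cep250 added, the latter turning from 0.23 to -4.80), 1 (Ssx2ip) with library totals, which moved the median of all genes, and 5 to 6 when each library was left out. Genes past an adjusted p of 0.05 numbered 0 to 0 at 24 h and 0 to 0 at 46 days without each library, and 12 at 46 days by the exact test of edgeR. At an unadjusted p under 0.05 the 24 h table had 313 genes, 142 with library totals and 919 by limma voom. At 46 days, members below that p numbered 0 in edgeR, 1 (Cep57) with library totals, 1 (Cep57) by limma voom and 0 to 1 when each library was left out (Cep57 without Vehicle-inj library 9). Genes at 46 days numbered 130, 37 with library totals, 75 without Tesa-inj library 12, 65 in libraries 1 to 10 and 76 with a term for libraries 11 to 14. An alternative chosen after seeing the data, without Tesa-inj libraries 2 and 12, gave 80 genes and 0 members. For the difference between time points, members numbered 5 in edgeR, 0 with library totals, 5 with TMM within each table (chosen after seeing the data; 208 genes against 106) and 4 to 5 when each library was left out. The summed level differed by -168 CPM at 24 h, -86.9 CPM with library totals and -193.7 to -136.4 CPM when each library was left out. At 46 days it differed by -20.1 CPM, -618.5 CPM with library totals and -31.43 to -6.814 CPM when each library was left out. The cause of these changes was not tested. The labels pair no libraries of the compared groups. With neighbouring 24 h numbers (1 and 2, 3 and 4, and so on) as a replicate block, also chosen after seeing the data, 7 members (Pcnt added), 523 genes at an unadjusted p under 0.05 and 0 past an adjusted p were counted at 24 h, and 2 members turned lower (Cep126, from 0.0039 to -0.23, and Cep250, from 0.23 to -0.26). Depth limits the 46-day values most in Tesa-inj libraries 2 and 12, with 318 and 969 member counts.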
